A study of Mus musculus with 6 samples.

Results

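Müller glia, the radial glial cells that span the retina, were followed on these arrays through 10 genes. Glul, Slc1a3, Aqp4, Car2 and Sox9 mark the identity of these cells, Apoe and Clu encode proteins they secrete, and Gfap, Vim and S100a6 are used to read gliosis, the reactive state of retinal glia. All probe sets annotated to these 10 genes were taken, which gave 10 of 18193 named genes and 27 of the 45037 non-control probe sets. The probe sets were taken by annotation alone, but the 10 genes were chosen with earlier results of these data known. Mouse retina at postnatal day 21 was profiled on 6 short-oligonucleotide arrays, with 2 retinas pooled for each array and sex given as mixed. Of these, 3 are labelled ERRβ -/- knockout, from C57Bl/6 x Sv129 mice, and 3 are wildtype C57Bl/6. The labels name no Cre line or cell type for the deletion. Genotype and strain background differ together and cannot be told apart. The comparison asks which transcripts differ in level when the orphan nuclear receptor ERRβ is targeted, a receptor named in the title of the study for rod photoreceptor survival.

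Müller glia take up the glutamate that neurons release, turn it into glutamine, carry water and potassium between the neurons and the vessels, and buffer carbon dioxide and pH. When photoreceptors are stressed or lost, these cells can turn reactive: they build more intermediate filament protein, and a rise in Gfap is the change most often used as its sign. Cytokines of the LIF and CNTF family, acting through the gp130 receptor and STAT3, are known to drive that response in rodent retina. Gfap, Aqp4 and Vim are also made by retinal astrocytes, and several of the 10 genes are used outside glia, among them Vim and S100a6 in many mesenchymal and epithelial cells.

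The start regions of 3 members are shown because they differ in what they hold: Gfap as the classical gliosis gene, S100a6 as a member that passed the test below, and Glul as an identity gene. They are 300 bases from RefSeq on build GRCm38.p6, from 250 bases before to 50 after the gene start, and run 5′ to 3′ on the gene's own strand. Capitals mark matches on either strand to AGGTCA, the half-site bound by many nuclear receptors, or to TTCNNNGAA, the element that STAT proteins bind.
Gfap: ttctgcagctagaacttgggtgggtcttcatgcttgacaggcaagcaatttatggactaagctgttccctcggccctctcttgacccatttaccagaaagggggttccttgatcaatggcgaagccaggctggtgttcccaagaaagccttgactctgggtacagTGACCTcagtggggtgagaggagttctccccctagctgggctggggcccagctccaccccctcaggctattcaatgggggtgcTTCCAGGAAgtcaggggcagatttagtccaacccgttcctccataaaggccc
S100a6: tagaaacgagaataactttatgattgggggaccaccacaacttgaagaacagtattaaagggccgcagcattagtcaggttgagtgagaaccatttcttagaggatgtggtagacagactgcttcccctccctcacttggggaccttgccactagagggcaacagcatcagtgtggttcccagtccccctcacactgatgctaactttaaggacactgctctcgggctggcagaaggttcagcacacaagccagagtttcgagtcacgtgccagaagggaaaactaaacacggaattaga
Glul: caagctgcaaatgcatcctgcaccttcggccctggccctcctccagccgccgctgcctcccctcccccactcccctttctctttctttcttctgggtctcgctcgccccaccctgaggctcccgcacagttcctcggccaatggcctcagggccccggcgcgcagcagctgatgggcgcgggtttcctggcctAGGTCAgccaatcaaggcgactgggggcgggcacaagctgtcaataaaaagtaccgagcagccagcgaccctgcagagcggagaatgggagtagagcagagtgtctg
The Gfap sequence lies at chr11:102897151-102897450 on the minus strand, S100a6 at chr3:90612644-90612943 on the plus strand and Glul at chr1:153899679-153899978 on the plus strand. Counted from 1 at the 5′ end, Gfap held the half-site as TGACCT at bases 166 to 171 and the STAT element as TTCCAGGAA at bases 249 to 257. Glul held the half-site as AGGTCA at bases 194 to 199, and S100a6 held neither. In the table used, 6 of the 10 genes had a start region, Apoe with 3 starts, so 8 regions were searched. The longer ERR element TNAAGGTCA, which contains the half-site, was in 0 of these 8 and in 1.28% of the 32851 start regions of all genes. The half-site was in 2 of 8 and 16.3% of all, and the STAT element in 2 of 8, those of Gfap and Slc1a3, and 8.3% of all. A match describes letters in this window and does not show a binding site.

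The arrays were not on a single scale. Their trimmed mean was near 500 for replicates 1 and 2 of both groups and near 150 for replicate 3 of both groups, here called the scaling batches, and log2 signals of non-control probe sets correlated at 0.910 to 0.950 within and 0.848 to 0.872 between them. Each test therefore used limma with the scaling batch as a term, on log2 signal, with two-sided p-values adjusted by Benjamini-Hochberg across 27022 probe sets kept by a filter on mean signal and a threshold of 0.05. Log2 fold changes are labelled knockout minus wildtype with a standard error (SE, n = 3 arrays per group). Of the kept probe sets, 609, or 2.25%, passed, 280 as higher and 329 as lower. With array medians set equal within each batch, 165 were higher and 119 lower, and log2 fold changes moved by 0.19 in the arrays scaled near 500 and by -0.10 in those scaled near 150. The count was 121, 114 and 3710 without knockout replicates 1, 2 and 3, and 105, 77 and 3697 without wildtype replicates 1, 2 and 3. Esrrb, the targeted gene, has 3 probe sets, and none passed the test. The brightest read 3435, 4012 and 2397 in labelled knockout, against 2951, 2934 and 1771 in wildtype (replicates 1, 2 and 3), with adjusted p = 0.0529 in limma. A second also lay higher in labelled knockout within each batch, and in the third, 1441921_x_at, the groups overlapped: it was higher near 500 (0.31) and lower near 150 (-0.05). The sources used here do not place its probes against the deleted part, which leaves the labels unchecked by it, and the name labelled knockout is used throughout. The tissue was checked with 9 measured rod genes, whose summed signal was 211845, 238535 and 37236 in labelled knockout and 272047, 269959 and 38286 in wildtype arrays. Array medians were 118, 114 and 61.5 in labelled knockout and 135, 130 and 57.3 in wildtype.

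Most Müller glia and gliosis probe sets did not pass the test, and those that did were higher. The filter kept 23 of the 27 probe sets, at least 1 for each of the 10 genes. Of these, 2 rose, 1 of S100a6 and 1 of Aqp4, and none fell in limma. That is 8.70% of the 23, beside 1.04% of all kept probe sets called higher, and 6 of the 23, all higher, had an unadjusted p under 0.05, beside 20.4% of all kept probe sets in either direction and 9.33% as higher. The median log2 fold change of the 23 was 0.20, beside -0.02 over all kept probe sets, and after median centring 0.29 beside 0.08. Within batches the median of the 23 was 0.16 near 500 and 0.08 near 150. With only the brightest kept probe set of each gene, the median of the 10 genes was 0.13. Within batches that median was 0.15 near 500 and -0.06 near 150, beside 0.02 in each batch over all genes taken the same way. The sign was positive for 21 of the 23 probe sets and negative for 2. It was positive in both batches for 13 of 23, while 10 had opposite signs in the 2 batches. All labelled knockout arrays lay above all wildtype arrays of their own batch for 7 of 23 probe sets (30.4%), beside 16.4% of all kept probe sets. These 7 belonged to Aqp4 (2), Vim (2), S100a6, Apoe and Sox9. None of the 23 lay lower in this way, beside 17.2% of all. With array medians set equal within batches, the share that lay higher was 30.4% of the 23 and 20.1% of all kept probe sets. Probe sets of a gene share its transcript and are not independent. No member passed with the replicate number as a block, and none without wildtype replicate 1 or 2 or without knockout replicate 1 or 2. Without replicate 3 of either group 4 of the 23 passed, all higher, which adds a second probe set of Aqp4 and 1 of Slc1a3. More probe sets of the whole array passed in these settings too, with 5.55% higher without knockout replicate 3 and 5.6% without wildtype replicate 3.

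**Figure D1:**
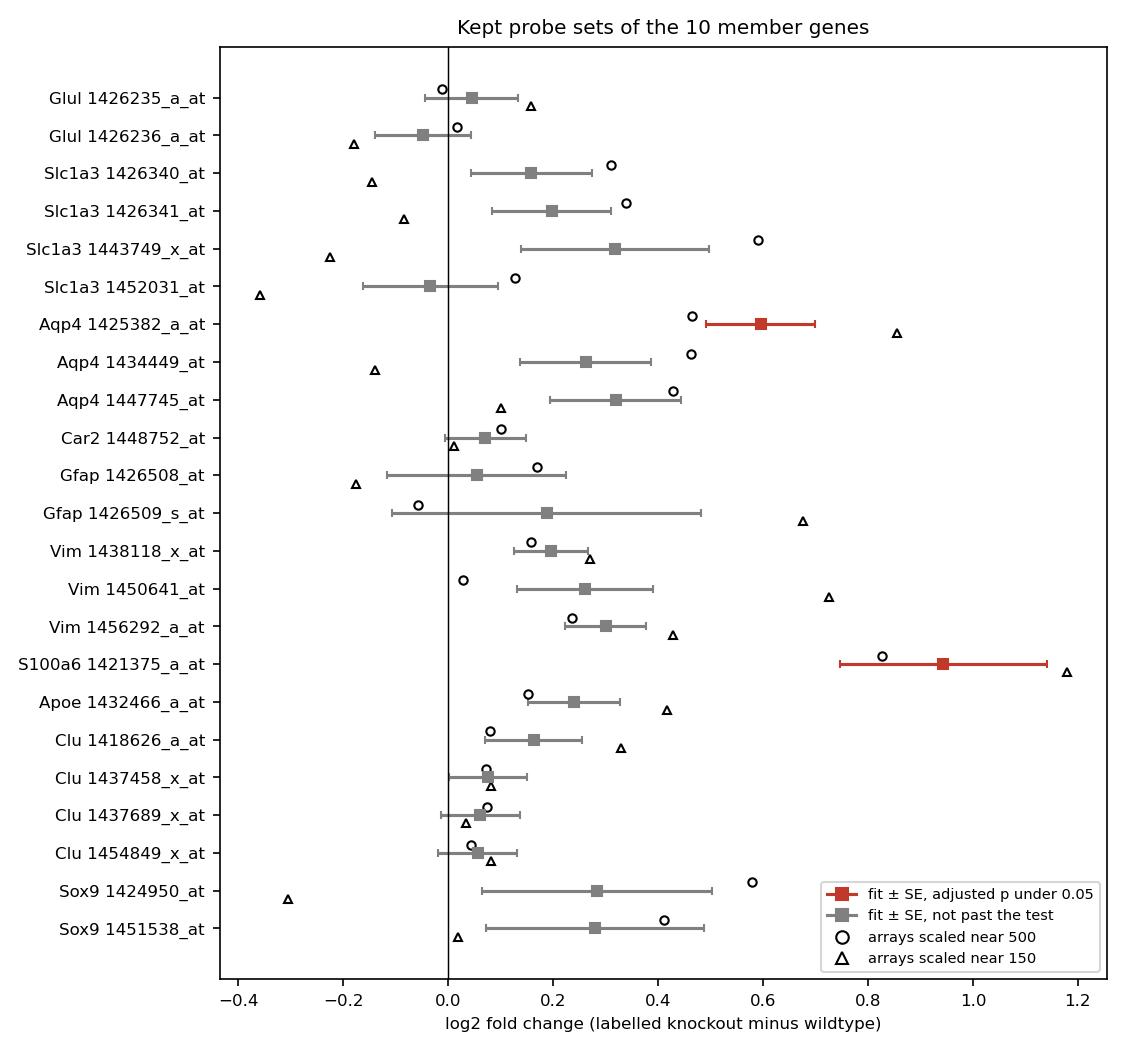
Log2 fold change (x axis, labelled knockout minus wildtype) of the 23 kept probe sets of the 10 genes, as the limma estimate with its SE (squares, 3 arrays per group) and as the difference within the arrays scaled near 500 (circles) and near 150 (triangles). The 2 red squares are S100a6 at 0.94 and Aqp4 at 0.60, and 10 probe sets have a circle and a triangle on opposite sides of 0.

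S100a6, a small calcium-binding protein of the S100 family that rises in reactive glia and in proliferating cells, had the largest change of the 23. It read 438, 332 and 165 in labelled knockout replicates 1, 2 and 3, against 253, 183 and 72.7 in wildtype. Every labelled knockout array was above the wildtype arrays of its batch. The log2 fold change was 0.94 ± 0.20, a 1.92-fold increase (limma adjusted p = 0.0440, 95% interval 0.50 to 1.39), with 0.83 in the batch near 500 and 1.18 in the batch near 150. The direction was the same in each batch, but the call lies at the threshold. With the replicate number as a block the adjusted p was 0.0604. It was 0.200 and 0.106 without knockout replicates 1 and 2, and 0.0830 and 0.230 without wildtype replicates 1 and 2.

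Gfap, the intermediate filament protein of astrocytes and reactive Müller glia, did not pass in either kept probe set. The unique probe set 1426508_at read 353, 316 and 72.5 in labelled knockout and 275, 321 and 81.9 in wildtype arrays. The groups overlapped near 500, and the labelled knockout array was the lower of the pair near 150. The log2 fold change was 0.05 ± 0.17 (limma adjusted p = 0.891), with an interval of -0.33 to 0.44. The second, 1426509_s_at, whose suffix marks probes that can bind transcripts of several genes, read 145, 143 and 30.9 in labelled knockout and 130, 172 and 19.3 in wildtype (0.19 ± 0.30, adjusted p = 0.766, interval -0.48 to 0.85). Its signs were opposite to those of the first in both batches, with -0.06 near 500 and 0.68 near 150. The third, 1440142_s_at, fell below the filter, at 91.8, 76.5 and 25.2 in labelled knockout and 85.1, 37.2 and 14.6 in wildtype.

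Vim encodes vimentin, the filament protein that Müller glia make also at rest. Its 3 probe sets had log2 fold changes of 0.20 ± 0.071, 0.26 ± 0.13 and 0.30 ± 0.077, and none passed (limma adjusted p = 0.168, 0.296 and 0.0790). The nearest to the threshold, 1456292_a_at, read 4495, 4302 and 1166 in labelled knockout arrays, against 3654, 3819 and 866 in wildtype. The groups did not overlap in either batch for this probe set or for 1438118_x_at, and they overlapped near 500 for 1450641_at. All 3 were positive in both batches, from 0.03 to 0.24 near 500 and from 0.27 to 0.73 near 150.

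**Figure D2:**
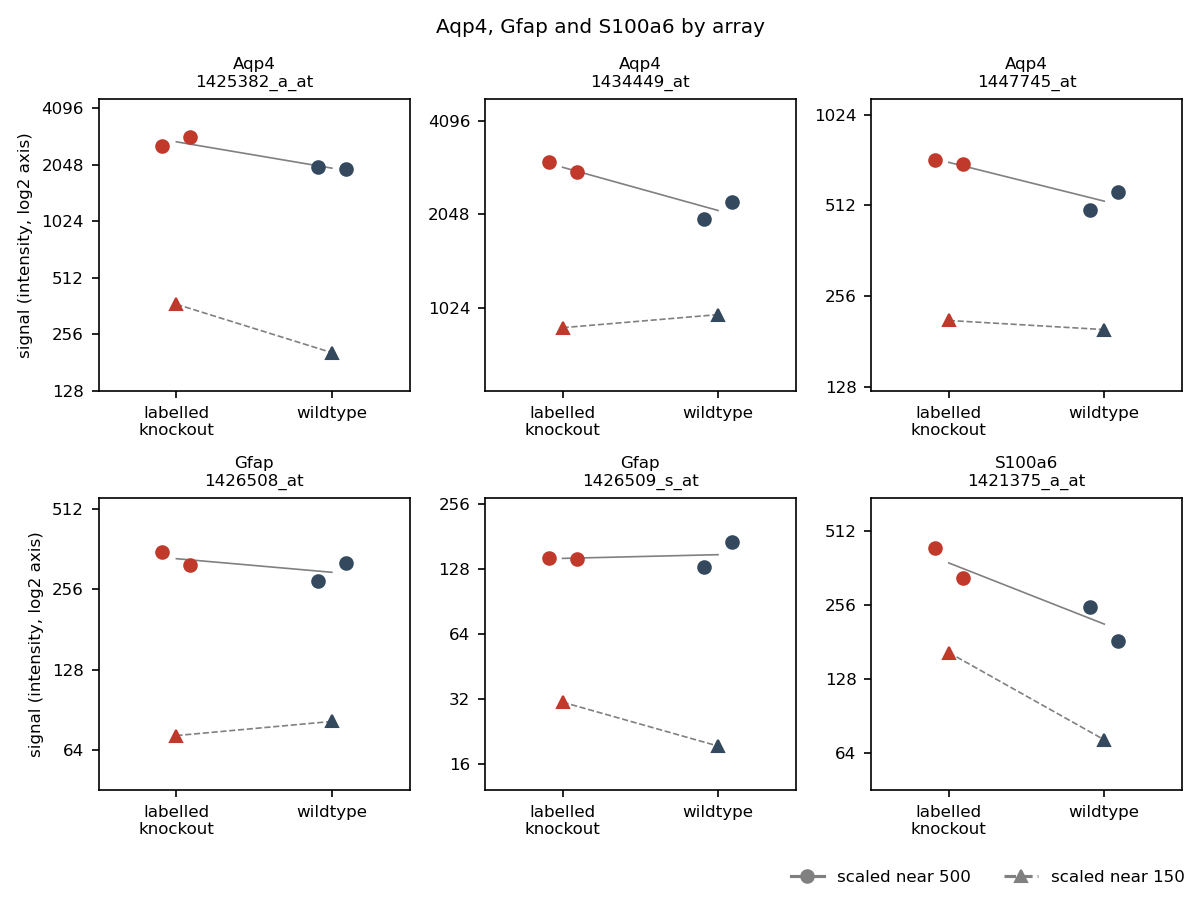
Signal (intensity, log2 axis, a separate range in each panel) of the kept probe sets of Aqp4, Gfap and S100a6 in the 3 labelled knockout arrays (left, red) and the 3 wildtype arrays (right, dark), with arrays scaled near 500 as circles and near 150 as triangles, and lines that join the geometric means within a batch. S100a6 and Aqp4 1425382_a_at are higher in labelled knockout in both batches, while Gfap 1426508_at and Aqp4 1434449_at turn direction near 150. Gfap 1426509_s_at turns the opposite way, with -0.06 near 500 and 0.68 near 150.

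Aqp4 encodes aquaporin-4, the water channel of Müller glial endfeet, and its 3 probe sets differed in their calls. Probe set 1425382_a_at, whose suffix marks probes shared by transcript variants of the gene, read 2563, 2866 and 370 in labelled knockout and 1980, 1946 and 205 in wildtype arrays. All labelled knockout arrays were above wildtype within their batch. It rose by 0.60 ± 0.10 on the log2 scale (limma adjusted p = 0.0241), with 0.47 near 500 and 0.86 near 150. The adjusted p was 0.0675 with the replicate number as a block, 0.0599 and 0.143 without knockout replicates 1 and 2, and 0.109 and 0.152 without wildtype replicates 1 and 2. Probe set 1447745_at, with 723, 700 and 212 in labelled knockout and 493, 568 and 198 in wildtype, had 0.32 ± 0.13 (adjusted p = 0.195). Probe set 1434449_at read 3011, 2794 and 882 in labelled knockout, against 1975, 2244 and 972 in wildtype, and had 0.26 ± 0.12 (adjusted p = 0.276). Near 500 the 3 probe sets were alike, at 0.47, 0.43 and 0.46. They parted near 150, at 0.86, 0.10 and -0.14. Without knockout or wildtype replicate 3, Aqp4 1434449_at passed as well, with 0.46.

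Slc1a3 encodes GLAST, the main glutamate transporter of Müller glia. None of its 4 kept probe sets passed, with log2 fold changes of 0.16 ± 0.12, 0.20 ± 0.11, 0.32 ± 0.18 and -0.03 ± 0.13 (limma adjusted p from 0.351 to 0.910). Probe set 1426341_at read 1169, 1320 and 430 in labelled knockout and 977, 988 and 456 in wildtype arrays. The pattern of higher near 500 and lower near 150 held for all 4: 0.31, 0.34, 0.59 and 0.13 near 500, against -0.15, -0.08, -0.22 and -0.36 near 150. For 1443749_x_at, whose suffix marks probes that may cross-hybridise, the arrays scaled near 150 read 1415 in labelled knockout and 1653 in wildtype, above all 4 arrays scaled near 500 (1252 and 898 in labelled knockout, 759 and 654 in wildtype). This probe set was the one that passed without replicate 3 of either group.

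Glul encodes glutamine synthetase, which turns the glutamate taken up into glutamine, and neither of its probe sets passed. Probe set 1426236_a_at read 25305, 31249 and 4892 in labelled knockout and 27803, 27787 and 5544 in wildtype arrays (-0.05 ± 0.091, limma adjusted p = 0.805, interval -0.25 to 0.16). Probe set 1426235_a_at had 0.04 ± 0.088 (adjusted p = 0.816, interval -0.15 to 0.24). Neither probe set has a settled sign: with array medians set equal within batches the first had 0.05. Car2, carbonic anhydrase II, which Müller glia use to buffer carbon dioxide, read 18056, 20996 and 3160 in labelled knockout and 18455, 17867 and 3135 in wildtype (0.07 ± 0.078, adjusted p = 0.652, interval -0.10 to 0.25).

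Apoe, the lipid carrier that Müller glia secrete, read 12461, 14641 and 1324 in labelled knockout and 12124, 12197 and 992 in wildtype arrays. Labelled knockout lay above wildtype in both batches, by 0.15 and 0.42 near 500 and near 150, and the fit gave 0.24 ± 0.088 (limma adjusted p = 0.173). Clu encodes clusterin, a secreted chaperone. Its 4 probe sets had 0.16, 0.08, 0.06 and 0.06, all positive in both batches, with adjusted p from 0.358 to 0.718 and overlapping groups. Of these, 1454849_x_at read 16930, 19508 and 2618 in labelled knockout, against 17564, 17689 and 2475 in wildtype.

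Sox9 encodes the transcription factor that keeps glial identity. Probe set 1424950_at read 206, 197 and 161 in labelled knockout and 144, 126 and 199 in wildtype arrays, which is higher near 500 (0.58) and lower near 150 (-0.31). The fit gave 0.28 ± 0.22 (limma adjusted p = 0.502). Probe set 1451538_at, with 244, 252 and 98.7 in labelled knockout and 154, 226 and 97.4 in wildtype, had 0.28 ± 0.21 (adjusted p = 0.485). Its groups did not overlap, although the pair near 150 differed by 0.02 on the log2 scale.

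**Figure D3:**
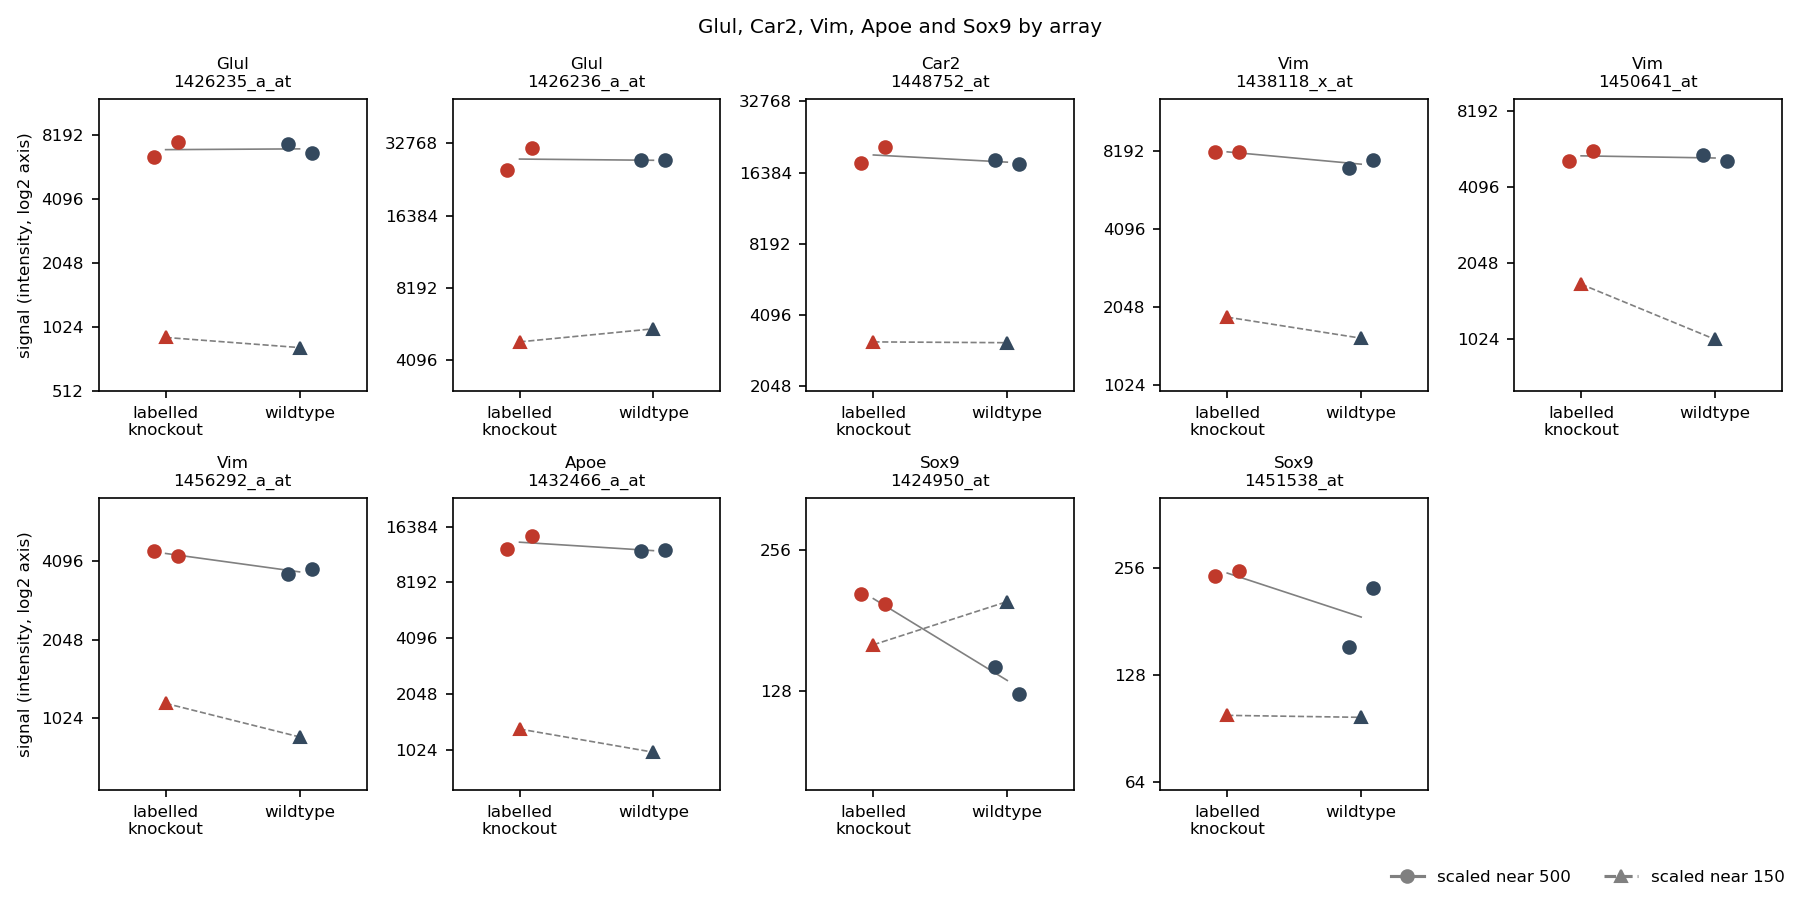
Signal (intensity, log2 axis, a separate range in each panel) of the kept probe sets of Glul, Car2, Vim, Apoe and Sox9 in labelled knockout (left, red) and wildtype arrays (right, dark), with arrays scaled near 500 as circles, near 150 as triangles, and lines between geometric means within a batch. Glul is almost level in the arrays scaled near 500. In those scaled near 150, Glul 1426235_a_at is higher in labelled knockout (0.16) and 1426236_a_at is lower (-0.18). Car2 is near level, the Vim and Apoe lines slope the same way in both batches, and those of Sox9 1424950_at cross.

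The filter removed 4 member probe sets, the third of Gfap given above, 2 of Slc1a3 and 1 of Sox9. Slc1a3 1439072_at read 9.86, 13.4 and 8.50 in labelled knockout, against 69.2, 52.8 and 29.6 in wildtype arrays, lower in every array of both batches. In a fit with no filter it had -2.20 ± 0.63 and did not pass (limma adjusted p = 0.155). This is opposite in sign to 3 of the 4 kept probe sets of Slc1a3, and its signals are below the array medians. Slc1a3 1440491_at ran from 21.8 to 35.6 in labelled knockout and from 20.9 to 58.1 in wildtype, and Sox9 1433889_at from 3.45 to 15.2 in labelled knockout and from 8.72 to 11.1 in wildtype.

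Genes whose signal followed that of S100a6 most closely were ranked among 12536 genes, taking for each gene the brightest of its kept probe sets by mean log2 signal. The measure was Pearson's r of log2 signal centred within the scaling batch, over 6 arrays. The closest were Psma2, a proteasome subunit gene (0.999), Ubl5, which encodes a ubiquitin-like protein (0.998), and Steap1, which encodes a membrane protein (0.996). With so few arrays 530 genes had r above 0.9, so the ranking is a description only. Psma2, Ubl5 and Steap1 had log2 fold changes of 0.31, 0.19 and 0.60, and none passed.

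Beyond the 10 genes, other Müller glia genes were read on the representative probe sets. Of 21 measured, 4 rose, none fell and 17 did not pass, beside 1.28% of all 12536 represented genes called higher and 1.48% called lower. At an unadjusted p under 0.05 in limma, 9 of the 21 were higher and 1 lower. Of the same 12536 genes, 11.5% were higher and 9.84% lower at that level. Without knockout replicate 3 the adjusted test called 6.98% of these 12536 genes higher and 6.96% lower. Without wildtype replicate 3 it called 7.04% higher and 6.85% lower. These shares are the background for the counts of every list below. The list's median log2 fold change was 0.17, beside 0.02 over all represented genes, with 0.29 near 500 and 0.06 near 150. Crb1, an apical polarity protein of Müller glia and photoreceptors, read 5604, 5430 and 1556 in labelled knockout, against 1399, 1243 and 1045 in wildtype arrays. Its log2 fold change was 1.57 ± 0.24 (limma adjusted p = 0.0149), and 1.37 in a second probe set, which passed too. Rdh10, a retinol dehydrogenase, had 0.58 ± 0.080 (adjusted p = 0.00882) and 0.45 in its second probe set (adjusted p = 0.0475, and 0.112 with the replicate number as a block). Dbi, an acyl-CoA binding protein and ligand of the glial TSPO protein, had 0.52 ± 0.074 (adjusted p = 0.00950), with 3 of its 4 probe sets past the test, although probe set 1422432_at had adjusted p = 0.0557 with that block. Ptgds, the prostaglandin D2 synthase, read 11946, 14211 and 1591 in labelled knockout and 9325, 9780 and 1126 in wildtype (0.47 ± 0.082, adjusted p = 0.0245), while its second probe set did not pass (adjusted p = 0.109). Rlbp1, the retinoid carrier CRALBP, had 0.13 (adjusted p = 0.350). Kcnj10, the potassium channel Kir4.1, was higher near 500 (1.03) and lower near 150 (-0.63), and did not pass. The lowest of this list was the metallothionein gene Mt1 at -0.30. The number that rose was 1 and 0 without knockout replicates 1 and 2, 0 and 0 without wildtype replicates 1 and 2, 9 without replicate 3 of either group (where 1 fell), and 2 with array medians set equal. It was 4 with the replicate number as a block.

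No gene that carries the gliosis signal passed the test. Of 16 measured genes for gliosis signals and their receptors, none rose and none fell in limma (1 higher and 2 lower at an unadjusted p under 0.05, beside 11.5% and 9.84% of all represented genes), 11 had a negative and 5 a positive value, and the median was -0.14 (-0.17 near 500 and 0.02 near 150). The lowest was Edn2, the endothelin that stressed photoreceptors of rodents make. It read 46.4, 52.2 and 40.6 in labelled knockout, against 113, 95.7 and 42.8 in wildtype arrays (-0.75 ± 0.36, adjusted p = 0.281). Stat3 had 0.10 (adjusted p = 0.769) and was -0.18 near 500 and 0.66 near 150. The highest was Socs3, a target and inhibitor of STAT3, at 0.26 (adjusted p = 0.534). Without knockout or wildtype replicate 3, none of these genes rose and 2 fell. Lif and Fgf2 lay below the filter and Cntf was not analysed here. Of 13 measured reactive glia genes, 1 rose and none fell, with a median of 0.03. It was Lgals3, the galectin-3 gene of macrophages and reactive glia, at 479, 401 and 82.2 in labelled knockout and 115, 102 and 53.8 in wildtype (1.55 ± 0.29, adjusted p = 0.0301, and 0.0679 with the replicate number as a block). None of this list rose without knockout replicate 1 or 2 or without wildtype replicate 1 or 2, and 2 rose and 2 fell without replicate 3 of either group. At an unadjusted p under 0.05 in limma, 4 of the 13 were higher and 2 lower, beside 11.5% and 9.84% of all represented genes. Serpina3n, a protease inhibitor of reactive astrocytes, had 0.94 ± 0.26 (adjusted p = 0.0983). Cd44 had 0.50 ± 0.14 (adjusted p = 0.0921) and Anxa2 0.31 ± 0.11 (adjusted p = 0.150). Mt2 and Lcn2 had -0.66 and -0.47 and did not pass. Lcn2 was -0.87 near 500 and 0.34 near 150.

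Relatives of the members were counted in the same way, and none of them passed in limma. At an unadjusted p under 0.05, 4 S100 and intermediate filament genes were higher and 3 lower, 1 gene of glutamate, potassium and water handling was higher and 2 lower, and 1 was higher and 1 lower in each of the lists of lipid carriage and of SOX9 relatives. The shares of all represented genes at that level were 11.5% higher and 9.84% lower. The median was 0.03 for 15 S100 and intermediate filament genes, -0.02 for 13 genes of glutamate, potassium and water handling, 0.11 for 10 genes of lipid carriage around ApoE and clusterin, and -0.10 for 16 relatives of SOX9 and glial transcription factors. Among the S100 genes, S100a1 had 0.42 (adjusted p = 0.0790), S100a10 0.51 (adjusted p = 0.103) and S100a4 1.25 (adjusted p = 0.157). S100a4 was 0.52 near 500 and 2.71 near 150, where it read 66.5 in labelled knockout and 10.2 in wildtype. Without knockout or wildtype replicate 3, 3 S100 and filament genes rose and 1 fell, 2 genes of glutamate, potassium and water handling rose and 1 fell, 1 of lipid carriage fell and 1 of the SOX9 list rose. The filament gene Synm had -0.68 (adjusted p = 0.160).

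**Figure D4:**
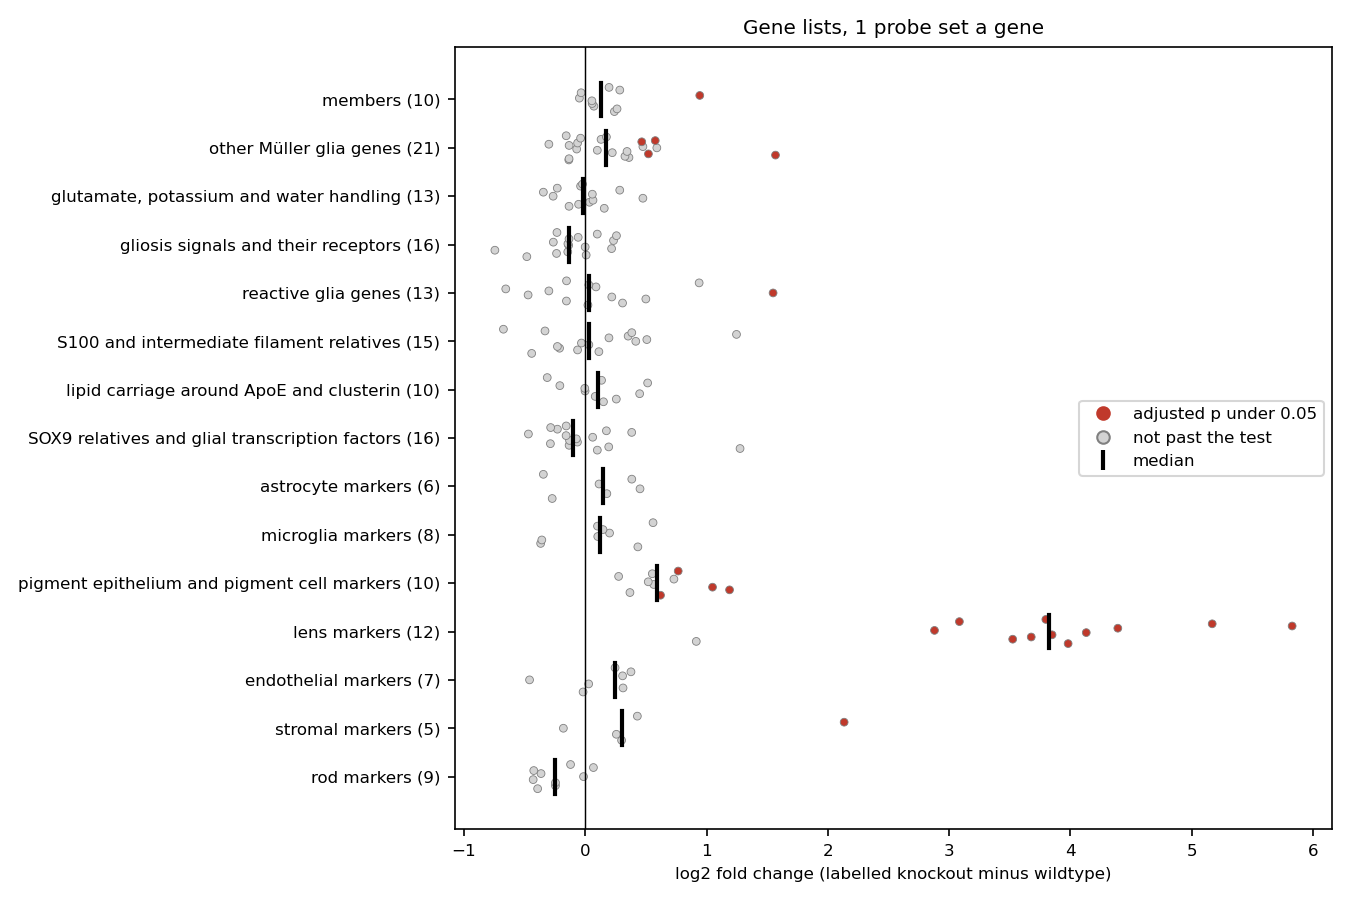
Log2 fold change (x axis, labelled knockout minus wildtype) of each measured gene of the lists, 1 probe set a gene, with the number measured in brackets, genes past the test in red and the median as a bar. The 10 member genes and the other Müller glia genes have medians of 0.13 and 0.17, the gliosis signals -0.14, the pigment cell list 0.59 and the lens list 3.82.

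Among markers of other cells, most lens genes, some pigment cell genes and 1 stromal gene passed the test. Of 12 measured lens genes 11 rose, and their summed signal was 45640, 40964 and 28095 in labelled knockout, against 2406, 1863 and 3580 in wildtype arrays. Of 10 pigment cell genes 4 rose (Tyrp1, Dct, Pmel and Mlana), and their sum was 38574, 45728 and 1752 in labelled knockout, against 33174, 33774 and 1005 in wildtype. The 4 was 2 and 3 without knockout replicates 1 and 2, and 0 without wildtype replicate 2. For Tyrp1, probe sets 1415862_at and 1439409_x_at had 0.73 and 0.65 and did not pass (limma adjusted p = 0.118 and 0.0600). Among 5 stromal genes, Dcn, the decorin gene of connective tissue, read 627, 555 and 63.0 in labelled knockout and 215, 157 and 7.70 in wildtype (2.13 ± 0.30, adjusted p = 0.00882), and it did not pass without knockout replicate 1 or wildtype replicate 2. None of 8 microglia, 6 astrocyte, 7 endothelial and 9 rod genes passed in limma. At an unadjusted p under 0.05, 1 astrocyte gene was higher, 1 microglia gene and 6 rod genes were lower, and 0 endothelial genes differed, beside 11.5% of all represented genes higher and 9.84% lower. Without knockout or wildtype replicate 3, 6 rod genes fell, 2 astrocyte genes rose and 1 fell, 1 microglia gene rose, and 1 endothelial gene rose and 1 fell. The sums were 4763, 4302 and 726 for microglia in labelled knockout and 3924, 3765 and 765 in wildtype, and 9740, 8737 and 3078 for astrocytes in labelled knockout and 8200, 7782 and 2958 in wildtype. No marker was at 0. Foxe3 of the lens list, Best1 of the pigment list, Gjb6 of the astrocyte list and Aif1, C1qc, Itgam and Fcer1g of the microglia list lay below the filter, and Pax2 was not analysed here. For Actb the ratio of 3′ to 5′ signal was 1.82, 1.66 and 1.67 in labelled knockout and 1.83, 1.89 and 2.32 in wildtype. The part of these cells, and of RNA quality, in the S100a6 and Aqp4 results was not tested. Nor was it tested for Crb1, Rdh10, Dbi, Ptgds and Lgals3. In whole retina a change in the number of Müller glia and a change in RNA per cell cannot be told apart.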

How the data were processed

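The labels' protocols describe total RNA from 2 pooled retinas per sample, dissected into RNAlater, amplified in a single round from an oligo dT primer and labelled with biotin. The authors deposited linear intensities, 1 for each probe set on each array, and per the submitters' processing notes GCOS 1.4 and MAS5 were used, with no role or order given. The table held 45101 probe sets, of which 64 controls were left out. Signals were taken to log2 with no further normalization. The scaling batch was read from each array's mean after trimming 2% at either end. Probe sets were kept at a mean log2 signal at or above the 40th percentile, a geometric mean of 54.5. The fit was lmFit and trended eBayes from limma 3.58.1, run in R 4.3.3 and checked on simulated arrays. Intervals are 95% intervals of that fit. An annotation table of the platform gave 34945 non-control probe sets 1 symbol, 932 several and 9160 none.

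Groups and replicate numbers came from the titles. Nothing in the labels says that samples of a group came from separate litters, and p-values therefore cover only the spread among these arrays, whose number limits precision. Deviations from group means correlated at 0.57, 0.67 and 0.843 for pairs numbered 1, 2 and 3, which meets the rule used for pairing (every pair above 0.1). The crossed pairs correlated as highly, at 0.627 for knockout 1 with wildtype 2 and 0.607 for knockout 2 with wildtype 1, and within the arrays scaled near 500 the value for pair 1 was 0.0153, so the correlations do not tell replicate number from scaling batch. The block by replicate number leaves 2 residual degrees of freedom, against 3.

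The members, lists and the batch term were chosen with earlier results of these data known. All member probe sets are reported, though not each by its identifier. Of each list except the lens list the genes that passed are named, with the highest and lowest of the Müller glia and gliosis signal lists. Other genes named (Rlbp1, Kcnj10, Stat3, Serpina3n, Cd44, Anxa2, Mt2, Lcn2, S100a1, S100a4, S100a10 and Synm) were chosen after their values were seen.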

Additional observations from a re-analysis of the deposited data

How the results depend on the processing

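Under other settings of the same fit, the count of 609 called probe sets was 0 with no term for the scaling batch (118 at an unadjusted p under 0.05, limma), 200 with a replicate block, 284 with median centring within batches, 405 with no filter on mean signal, 955 with a filter at the 60th percentile and 19 without a variance trend. Leaving out arrays gave 77 to 3710, and the arrays scaled near 500 alone 3687. The 2 called member probe sets, S100a6 and Aqp4 1425382_a_at, were both called with quantile normalization, with median centring, with 16 added to every signal and with the stricter filter. The count of members was 0 with no batch term (0 also at an unadjusted p under 0.05), 0 with a replicate block (6 unadjusted), 0 without a variance trend (4 unadjusted) and 1 with no filter, where S100a6 had adjusted p = 0.0683. Leaving out arrays gave 0 to 4, and the arrays scaled near 500 alone 4. The count of listed genes called, members apart, was 21, and 0 with no batch term, 8 without a variance trend, 11 to 51 with arrays left out and 53 in the arrays scaled near 500 alone. With the replicate block 20 of these 21 were still called, all but Lgals3. The sign of Glul 1426236_a_at and Slc1a3 1452031_at turned with median centring, to 0.047 and 0.061. In the arrays scaled near 500 alone the sign turned for Glul 1426235_a_at (-0.012), Glul 1426236_a_at (0.017), Slc1a3 1452031_at (0.13) and Gfap 1426509_s_at (-0.057). With arrays left out, values ran from -0.012 to 0.13 for Glul 1426235_a_at, -0.15 to 0.019 for Glul 1426236_a_at, -0.18 to 0.13 for Slc1a3 1452031_at, -0.042 to 0.17 for Gfap 1426508_at and -0.057 to 0.37 for Gfap 1426509_s_at. The other 18 kept member probe sets kept their sign under all settings run. Leaving out either array scaled near 150 removes that batch from the comparison, so those settings and the arrays scaled near 500 alone give the same fold changes. The causes of the other changes were not tested. No detection calls are used here, and signals under the array medians are less certain.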
